A study of Mus musculus with 5 samples.

Results

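The arms of the miR-135a, miR-139 and miR-328 hairpins were examined in BMDCs treated with flagellin and in BMDCs kept in medium alone. The name rule found 7 mouse miRNAs among the 1122 on the array, namely 3 arms that were lower with flagellin (miR-135a-1-3p, miR-139-3p and miR-328-5p), the 3 arms opposite to them (miR-135a-5p, miR-139-5p and miR-328-3p) and miR-135a-2-3p, the 3p arm of another miR-135a hairpin. The 3 lower arms were chosen by their total gene signals in the same flagellin and medium arrays described here, so their differences are given as a description with no test. The opposite arms entered through their names, and the question was whether they moved with their partners.

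Dendritic cells were grown in vitro from the bone marrow of C3H/HeJ mice with GM-CSF and IL-4 and sorted for CD11c with magnetic beads. C3H/HeJ mice carry a defective Tlr4, the receptor for lipopolysaccharide. The flagellin group (3 arrays) received flagellin (FliC), the bacterial ligand of TLR5, at 100 ng/mL for 24 h, and the medium group (2 arrays) was a mock culture kept for 24 h without it. Total RNA was measured with 1-colour Agilent mouse miRNA arrays. The labels do not say whether the arrays of a group came from separate cultures or animals, so p-values measure only the spread between these samples, which may be technical.

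A miRNA gene is transcribed into a hairpin, and Drosha and Dicer cut it into a duplex of a 5p and a 3p arm. Usually a single arm is kept by Argonaute as the guide strand and pairs with mRNAs through its seed, while the passenger arm is degraded, so the arms of a hairpin share a transcript but can differ in stability. The arms usually retained are miR-135a-5p, known to repress the Wnt pathway inhibitor Apc, miR-139-5p, known as an inhibitor of Igf1r expression, and miR-328-3p, known to bind the translational repressor hnRNP E2. The lower arms are thus the usual passenger strands of their hairpins.

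Mature sequences of 5 of the 7 arms were found in RefSeq (GRCm38.p6) and are shown 5′ to 3′ with the seed, bases 2 to 8, in capitals, because the arms of a hairpin pair with different targets.
mmu-miR-135a-1-3p: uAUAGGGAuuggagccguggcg
mmu-miR-135a-5p: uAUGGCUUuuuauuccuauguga
mmu-miR-135a-2-3p: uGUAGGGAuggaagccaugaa
mmu-miR-139-3p: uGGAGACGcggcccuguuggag
mmu-miR-139-5p: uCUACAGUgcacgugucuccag
The 5 seeds differed from one another, and none of the 881 array miRNAs found by name in the RefSeq table shared a seed with any of these 5 arms. The other 241 array miRNAs, miR-135b-5p and both miR-328 arms among them, were not found in that table, and their seeds were not compared by it. The 23-nt probe of miR-135b-5p, however, ends in the same bases as the 23-nt probe of miR-135a-5p, which reads the seed. By these probes miR-135b-5p has the seed of miR-135a-5p. The sequence of miR-135a-5p is the same in both miR-135a hairpins, so its probes cannot separate them, whereas the longest stretch shared by miR-135a-1-3p and miR-135a-2-3p was 7 bases.

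Each arm was read by 2 to 4 nested probes that share a 5′ end and pair with the 3′ end of the miRNA. The longest probe of each arm is shown 5′ to 3′, with the base that the next shorter probe lacks in capitals, because the detection of an arm depended on this base more than once.
mmu-miR-135a-1-3p probe: cgccacggctccA
mmu-miR-135a-5p probe: tcacataggaataaaaagccatA
mmu-miR-135a-2-3p probe: ttcatggcttccatcC
mmu-miR-139-3p probe: ctccaacagggccG
mmu-miR-139-5p probe: ctggagacacgtgcacT
mmu-miR-328-5p probe: ccctgagcccctC
mmu-miR-328-3p probe: acggaagggcagagaggG
The lower arms were read by 8 probes of 10 to 14 nt with 69.2% to 83.3% GC. The other arms were read by 9 probes of 15 to 23 nt with 30.4% to 66.7% GC. Set against the mature sequences, the 13-nt probe of miR-135a-1-3p covers bases 10 to 22 and the 14-nt probe of miR-139-3p bases 9 to 22, so neither reaches the seed. The 17-nt probe of miR-139-5p covers bases 6 to 22, and the 23-nt probe of miR-135a-5p covers the whole miRNA.

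In the deposited files (mm9), the longest probes of miR-135a-1-3p and miR-135a-5p lie on the plus strand at chr9:106056519-106056531 and chr9:106056471-106056493. The positions given there for miR-139 and miR-328 are not printed: those of the miR-139 probes span 1 base less than the probes, and those of the miR-328 probes name the minus strand but put the 5p arm at lower coordinates than the 3p arm, an order that belongs to the plus strand. By RefSeq names and neighbours (GRCm38.p6), Mir139 lies within the span of Pde2a, a cyclic nucleotide phosphodiesterase gene, and Mir328 within that of Elmo3, an engulfment and motility gene. Mir135a-1 overlaps Glyctk, the glycerate kinase gene, and D030055H07Rik, while Mir135a-2 overlaps no listed gene and precedes Rmst, a long non-coding RNA gene. Whether these positions are exonic or intronic was not analysed here.

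The signals of these arms were near the limit of the assay. Feature Extraction counts a probe as detected when its signal is above 3 times its error, and the total gene signal sums the probes that pass. The median error of probes printed in 20 spots lay between 1.47 intensity units (medium replicate 1) and 1.79 (flagellin replicate 2). Between 292 (flagellin replicate 3) and 317 (medium replicate 1) mouse miRNAs were detected per array, and no spot was saturated. For comparisons between arrays each signal was divided by its array's 75th percentile (281, 293 and 211 with flagellin, 282 and 246 with medium). The 5 arrays shared 1 slide. Column 4 of it held the medium arrays, column 3 flagellin replicate 3 and column 2 flagellin replicates 1 and 2, so that position and treatment cannot be told apart.

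The labelled cell type was checked against miRNAs of blood and tissue cells. All 6 myeloid and activation miRNAs (miR-223-3p, miR-142-3p, miR-142-5p, miR-155-5p, miR-146a-5p and miR-21-5p) were detected on every array, with summed signals of 40092, 41643 and 26199 with flagellin and 37260 and 32087 with medium. miR-21-5p was the most abundant of them and, at 21574 to 34155, made up most of each sum. miR-223-3p, a marker of myeloid cells, read between 2499 and 3464. The lymphoid miR-150-5p and the liver miR-122-5p were detected on none of the arrays. Neither were 3 of the 4 neural miRNAs (miR-124-3p, miR-9-5p and miR-9-3p), 3 of the 4 epithelial ones (miR-200b-3p, miR-141-3p and miR-429-3p), or miR-1a-3p and miR-133a-3p of the 3 muscle ones. Some markers of other tissues were detected, however. miR-219-5p of the neural list was detected on all arrays (5.22 to 17.3, log2 difference −0.38), as was miR-206-3p of the muscle list (14.8 to 19.1, −0.02), and miR-200c-3p of the epithelial list was detected on 2 arrays (at most 5.98).

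Flagellin replicate 2 stood apart in the lists of other cells that bone marrow holds. Its summed signal over the 5 stromal miRNAs was 53.1, led by miR-199a-3p, against 5.58 and 0 on the other flagellin arrays and 5.59 and 0 with medium. miR-214-3p, miR-143-3p and miR-145-5p of that list were detected nowhere. The 3 erythroid miRNAs on the array, of the 4 listed, summed to 5.29, 17.0 and 0 with flagellin and to 0 on both medium arrays, all of it miR-451, with miR-144-3p and miR-144-5p undetected. miR-126-3p, an endothelial and platelet miRNA, read 12.6, 29.1 and 5.60 with flagellin and 12.5 and 5.04 with medium, while miR-126-5p was undetected. Without flagellin replicate 2 the lower arms differed by −0.96 (miR-135a-1-3p), −0.55 (miR-139-3p) and −0.40 (miR-328-5p) on the log2 scale.

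The total gene signal of miR-135a-1-3p was 14.7, 18.1 and 13.8 in BMDCs treated with flagellin, compared with 32.4 and 27.8 in medium alone. Every flagellin array was lower than either medium array, and the gap between the groups exceeded the scanner's own error, which lay between 1.48 and 2.55. The flagellin mean was 15.5 ± 2.26 (SD, n = 3) and the medium mean 30.1 ± 3.20 (SD, n = 2). After scaling, the log2 difference was −0.93, a signal 1.91-fold higher with medium, and the lowest of the 277 miRNAs detected on all arrays.

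miR-139-3p read 7.15, 8.98 and 5.69 with flagellin, against 11 and 9.36 with medium. The groups did not overlap, but flagellin replicate 2 lay below medium replicate 2 by less than the scanner's error, which was 1.64 to 2.0 with flagellin. Its means were 7.27 ± 1.65 (SD, n = 3) and 10.2 ± 1.14 (SD, n = 2), and the scaled log2 difference of −0.48 was the 10th lowest. miR-328-5p read 27.3, 26.7 and 22.2 with flagellin, against 41.4 and 29.9 with medium. Medium replicate 1 was well above the other arrays, whereas medium replicate 2 lay within the scanner's error (3.02 to 3.17 on those arrays) of flagellin replicates 1 and 2. Its means were 25.4 ± 2.77 (SD, n = 3) and 35.7 ± 8.17 (SD, n = 2), and the scaled log2 difference of −0.45 was the 14th lowest.

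In all 3 lower arms the flagellin values lay below both medium values, which the choice of the members fixes. The same held for 19 of the 277 miRNAs detected on all arrays (6.86%) and for 27 of the 307 miRNAs detected on at least 2 arrays (8.79%). Leaving out the lower arms, it held for 16 of the other 274 miRNAs detected on all arrays, for 5 of the 15 with a mean probe GC at or above that of miR-328-5p and for 12 of the 66 with a mean probe length of at most 13.5 nt, and these counts were not tested against each other. In bulk RNA, fewer cells of a type and less miRNA per cell cannot be told apart.

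**Figure D1:**
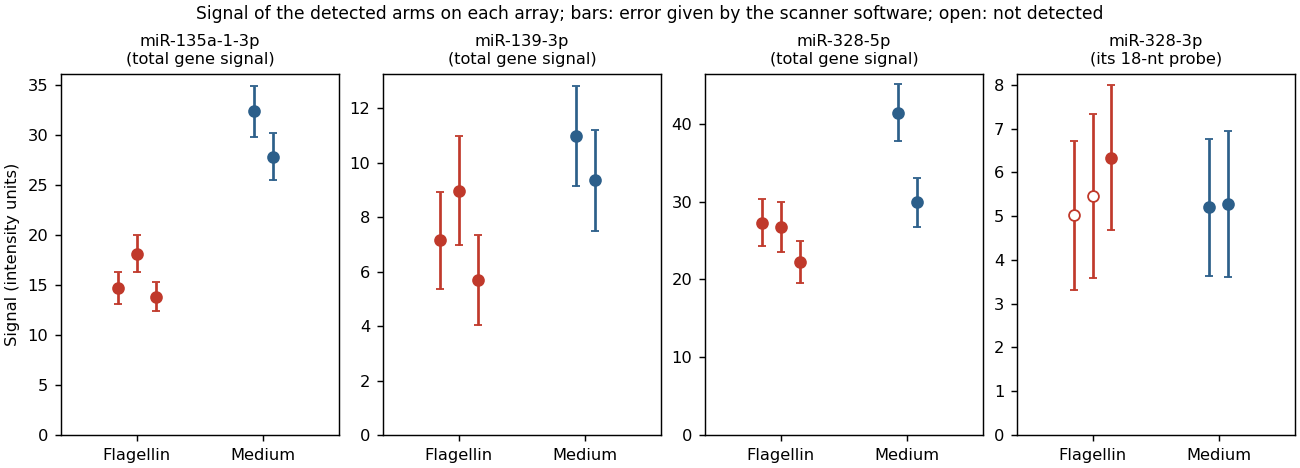
Signals in intensity units (vertical axis, starting at 0 in each panel) of miR-135a-1-3p, miR-139-3p, miR-328-5p and the 18-nt probe of miR-328-3p on 3 flagellin arrays (red) and 2 medium arrays (blue), with the error given by the scanner software as bars and open points where the arm was not detected. Flagellin arrays lie below both medium arrays in the first 3 panels, by which those arms were chosen, and the groups overlap for miR-328-3p, which ranges from 5.02 to 6.34 with flagellin.

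miR-135a-5p, the usual guide strand of the hairpin with the lowest 3p arm, was not detected on any array. Its 23-nt probe read 0.547, 0.0621 and 1.21 with flagellin and 1.33 and 0.686 with medium, and its 22-nt probe 0.665, 0.0335 and 0.168 with flagellin and 0.340 and 0.559 with medium. These signals were at most 0.904 of their error, so neither group gave a level and no fold can be stated. Exact two-sided permutation tests of the scaled probe signals gave p = 0.7 for the 23-nt probe and p = 0.5 for the 22-nt probe.

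miR-135a-2-3p, the arm of the other miR-135a hairpin, also went undetected, with all signals of its 15-nt and 16-nt probes below 0 (−1.69 to −0.344). The related miR-135b-5p and miR-135b-3p were detected on no array either. Both probes of miR-135b-5p and the 16-nt probe of miR-135b-3p nevertheless read lower on every flagellin array than on either medium array, before and after scaling, with exact permutation p = 0.1 for each (unadjusted). Their signals reached at most 0.687 of the error, and those of miR-135b-3p were below 0. In the 15-nt probe of miR-135b-3p, also below 0, the groups overlapped (exact permutation p = 0.6, and 0.4 after scaling). No share of all array probes with the lower order is given, so nothing is read from it. With no other arm detected, miR-135a-1-3p was the single detected product among the 5 arms of the miR-135a and miR-135b hairpins on the array.

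miR-139-5p was likewise not detected. Its 17-nt probe read 0.971, 0.729 and 0.657 with flagellin and 0.323 and 0.788 with medium, against limits of 2.86 to 3.5. Its 16-nt probe read 0.334, 0.333 and 0.312 with flagellin and 0.651 and 0.429 with medium, and its 15-nt probe was below 0 on all arrays. The flagellin signals of the 16-nt probe were all below the medium signals, and its exact permutation p of 0.1 is the smallest that 10 splits of 3 arrays against 2 allow. That probe never exceeded 0.680 of its error. In the 17-nt probe the groups overlapped (exact p = 0.5).

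**Figure D2:**
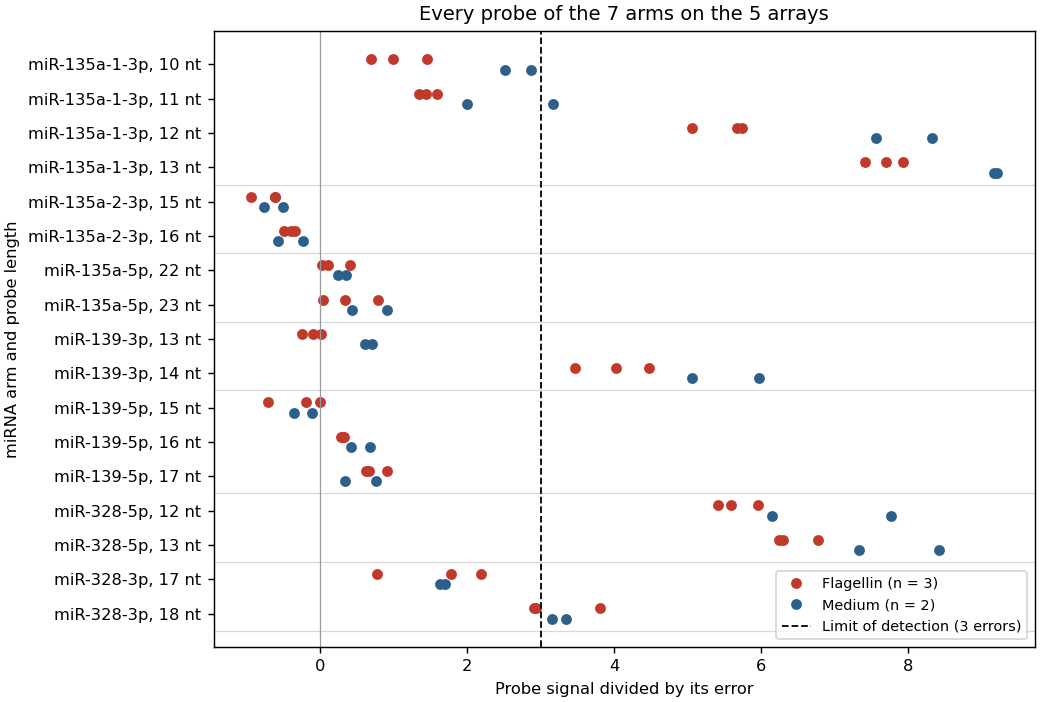
Signal divided by error (horizontal axis, no unit) for each of the 17 probes of the 7 arms, named by arm and probe length, on 3 flagellin arrays (red) and 2 medium arrays (blue); the dashed line is the detection limit of 3 errors. Probes of miR-135a-5p, miR-135a-2-3p and miR-139-5p reach at most 0.913 on any array, and the 18-nt probe of miR-328-3p straddles the limit from 2.91 to 3.81.

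miR-328-3p was the opposite arm with a measurable signal. It was called detected on flagellin replicate 3 and on both medium arrays and not on flagellin replicates 1 and 2. Its 18-nt probe nevertheless read 5.02, 5.46 and 6.34 with flagellin, compared with 5.2 and 5.28 in medium alone, so the undetected arrays carried signals of the same size as the detected ones. They differed in the limit, which was 5.13 and 5.62 on flagellin replicates 1 and 2 and 4.99, 4.67 and 5.03 on the arrays that passed. Its mean was 5.61 ± 0.674 (SD, n = 3) in the flagellin group and 5.24 ± 0.0565 (SD, n = 2) in the medium group. The exact permutation p was 0.8 for the signals and 0.9 after scaling (n = 3 and 2). The 17-nt probe passed nowhere and read 2.95, 1.37 and 3.43 with flagellin and 2.52 and 2.62 with medium (exact permutation p = 1.0).

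The direction given for miR-328-3p depended on the detection call. With undetected arrays set to the common floor of −6.37 on the log2 scale, as in the comparison of all miRNAs, its log2 difference was −0.28 (SE 0.47, 95% interval −1.52 to 0.96, adjusted p = 0.891 in limma's test, n = 3 and 2). With the 18-nt probe taken as measured on every array, an alternative chosen after seeing the data, the difference was 0.12 (95% interval −0.50 to 0.73, limma adjusted p = 0.896). It was 0.0014 with quantile normalization, so its direction also depended on the scaling. Only flagellin replicate 3 was higher than both medium arrays after scaling, and the other flagellin arrays were lower than or between them. Without flagellin replicate 3 the difference was −0.72 (95% interval −1.02 to −0.42, limma adjusted p = 0.136), and with the replicate block it was −0.72 (95% interval −1.07 to −0.37, limma adjusted p = 0.336), in each case with the remaining flagellin arrays at the floor. The floor, not a measured level, thus stood for flagellin in both. Without flagellin replicate 1 or 2 the difference was −0.06. It was −2.49 with a floor divided by 10 and −3.68 with the authors' values. At probe level with normexp and quantile normalization it was 0.02 (95% interval −0.11 to 0.14, limma adjusted p = 0.942). Across the 307 miRNAs tested, limma called 2 (0.651%) at an adjusted p under 0.05, both of them lower with flagellin, namely miR-466i-3p and miR-5112. At an unadjusted p under 0.05 there were 18 (5.86%), and miR-328-3p was in neither of these counts. The unadjusted count depended on single arrays: in limma it was 13, 16 and 71 without flagellin replicates 1, 2 and 3 in turn.

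The arms of miR-328 could also be set against each other within an array, where scaling cancels, with the limit that miR-328-5p was chosen for its difference and that no probe of miR-328-3p passed 3 errors on flagellin replicates 1 and 2. The total signal of miR-328-5p divided by the 18-nt probe of miR-328-3p as measured was 5.43, 4.90 and 3.5 with flagellin, against 7.97 and 5.66 with medium. Divided by the sum of the 17-nt and 18-nt probes it was 3.42, 3.91 and 2.27 with flagellin, against 5.37 and 3.78 with medium. The groups did not overlap in the first ratio and overlapped in the second, where flagellin replicate 2 lay above medium replicate 2, so no difference between the arms is drawn from these ratios, which have no test.

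Within the lower arms the nested probes were compared, each with itself across arrays. All 8 probes had lower signals on every flagellin array than on either medium array, before and after scaling, but 3 of them passed 3 errors on at most 1 array. As these arms were chosen by totals of such probes, this order is a description only. Its share over all array probes is not given. For miR-135a-1-3p the 13-nt probe read 9.89, 11.8 and 8.53 with flagellin and 18.6 and 18.5 with medium, and the 12-nt probe 4.78, 6.33 and 5.30 with flagellin and 11.3 and 9.32 with medium. These probes passed on all arrays, and their scaled log2 differences of −0.87 and −0.89 lay close together. The 11-nt probe passed on medium replicate 1 alone (2.45 against a limit of 2.33), which added it to the total there and on no other array. With the 12-nt and 13-nt probes alone the log2 difference of miR-135a-1-3p was −0.88, compared with −0.93 for the deposited total.

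miR-139-3p rested on a single probe. The 14-nt probe passed on all arrays, with a signal from 3.47 times its error on flagellin replicate 3 (5.69 against a limit of 4.92) to 5.97 times its error on medium replicate 1, while the 13-nt probe, which lacks the last base, reached at most 0.701 of its error. Both probes of miR-328-5p passed on all arrays, and their scaled log2 differences were −0.39 for 12 nt and −0.50 for 13 nt. Its 12-nt probe read 12.1, 12.1 and 9.91 with flagellin and 18.3 and 12.5 with medium, so for that probe the separation of medium replicate 2 from 2 flagellin arrays was far smaller than its error of 2.02.

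**Figure D3:**
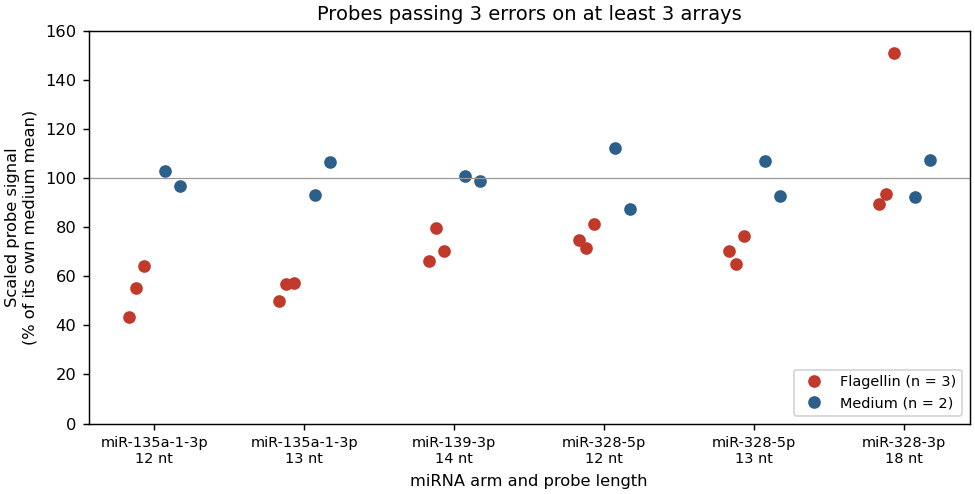
Scaled signal of each probe that passed 3 errors on at least 3 arrays, as a percentage of that probe's own mean over the 2 medium arrays (vertical axis, starting at 0), on 3 flagellin arrays (red) and 2 medium arrays (blue). Each probe is set only against itself. The probes of the lower arms, which were chosen by their totals, lie below 100% on all flagellin arrays. The 18-nt probe of miR-328-3p lies above 100% on flagellin replicate 3 and below it on the other flagellin arrays.

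The probes of the lower arms were shorter and richer in GC than most on the array, and miRNAs with like probes were examined beside them. Mean probe GC was 80.5% for miR-135a-1-3p, 76.0% for miR-328-5p and 70.3% for miR-139-3p, against 31.1% for miR-135a-5p, 60.4% for miR-139-5p and 65.7% for miR-328-3p in the opposite arms. Of the 277 miRNAs detected on all arrays, 44.8% were lower with flagellin, and the median log2 difference was 0.02. Of the 17 with a mean probe GC at or above that of miR-328-5p, 16 were lower, with a median of −0.17. Without miR-135a-1-3p and miR-328-5p themselves this was 14 of 15 and −0.14. At or above the GC of miR-139-3p 26 of 31 were lower (median −0.13), and at or above that of miR-135a-1-3p 9 of 10 (median −0.15). Without the lower arms these were 23 of 28 (median −0.09) and 8 of 9 (median −0.14). Among the 130 miRNAs with probe GC below 50%, 52 were lower and the median was 0.04.

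Probe length gave a similar order. Of the miRNAs whose mean probe length was at or below that of miR-135a-1-3p (11.5 nt), 14 of 16 were lower with flagellin, with a median of −0.14. At or below the 12.5 nt of miR-328-5p 24 of 30 were lower (median −0.14), and at or below the 13.5 nt of miR-139-3p 46 of 69 (median −0.07). Without the lower arms the counts in these length classes, from the shortest, were 13 of 15 (median −0.13), 22 of 28 (−0.13) and 43 of 66 (−0.07). All 17 GC-rich miRNAs were also among the 30 with the shortest probes, so length and GC content were not separated. Among the 17, miR-714 was the exception that was higher (0.09), and it was named after its value was seen.

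The shift of the GC-rich miRNAs was not the same on all flagellin arrays. The median deviation of those 17 miRNAs from their own means was −0.19 on flagellin replicate 1 and −0.09 on flagellin replicate 2, but 0.10 on flagellin replicate 3, and it was 0.05 and 0.13 on the medium arrays. Flagellin replicate 3 thus lay with the medium arrays in this measure, and it was in slide column 3, between the other flagellin arrays and the medium arrays. The scaled log2 value of miR-135a-1-3p was −4.26, −4.02 and −3.93 with flagellin, compared with −3.12 and −3.14 in medium alone. miR-328-5p was at −3.37, −3.45 and −3.25 with flagellin and −2.77 and −3.04 with medium, and miR-139-3p at −5.30, −5.03 and −5.21 against −4.68 and −4.72. As in the 17 GC-rich miRNAs, which include both of them, flagellin replicate 3 was the highest flagellin array for miR-135a-1-3p and miR-328-5p. For miR-139-3p the highest was flagellin replicate 2. With the trend on probe GC taken out of each array, an alternative chosen after seeing the data, the log2 differences were −0.82 for miR-135a-1-3p, −0.40 for miR-139-3p and −0.35 for miR-328-5p. With the trend on probe length removed they were −0.82, −0.40 and −0.35. As the arms were chosen by these differences, nothing is read from what is left of them, and the part of slide position was not tested.

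**Figure D4:**
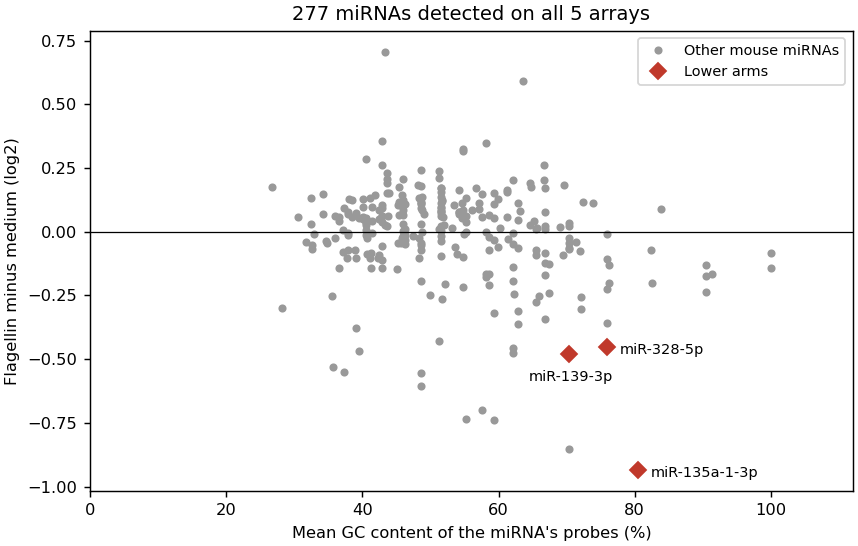
Flagellin minus medium on the log2 scale (vertical axis) against the mean GC content of the probes of a miRNA in percent (horizontal axis) for the 277 miRNAs detected on all 5 arrays, with the 3 lower arms as red diamonds. Points at high GC lie mostly below 0, and miR-135a-1-3p at −0.93 is the lowest point.

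The arms were set beside the 409 hairpins for which the array names both a 5p and a 3p arm, which include miR-139 and miR-328. For 230 of them neither arm was detected on any array, and for 111 a single arm was detected on all arrays and the other on none, as for miR-139. The detected arm was the 5p arm in 57 and the 3p arm in 54 of these, and its probes had the higher GC content in 63 of the 111. Among the 111 the detected arm was lower with flagellin in 48 (43.2%), with a median log2 difference of 0.02. Only 2 arms lay at or below the −0.48 of miR-139-3p, which is one of them, and the other was miR-494-3p.

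Both arms were tested for 40 hairpins, miR-328 among them. The arms lay on the same side of 0 in 24 of the 40, both lower in 8 and both higher in 16. They lay on opposite sides in 15, and the remaining hairpin, miR-193, had its 5p arm at exactly 0 because its values stood at the floor on all arrays. In the 32 hairpins with both arms detected on all arrays, the arms lay on the same side in 20, and the log2 differences of the arms differed by a median of 0.10 and at most by 0.88. miR-328 counts among the 8 with its deposited totals and leaves them with the 18-nt probe as measured, when its arms stood at −0.45 and 0.12.

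**Figure D5:**
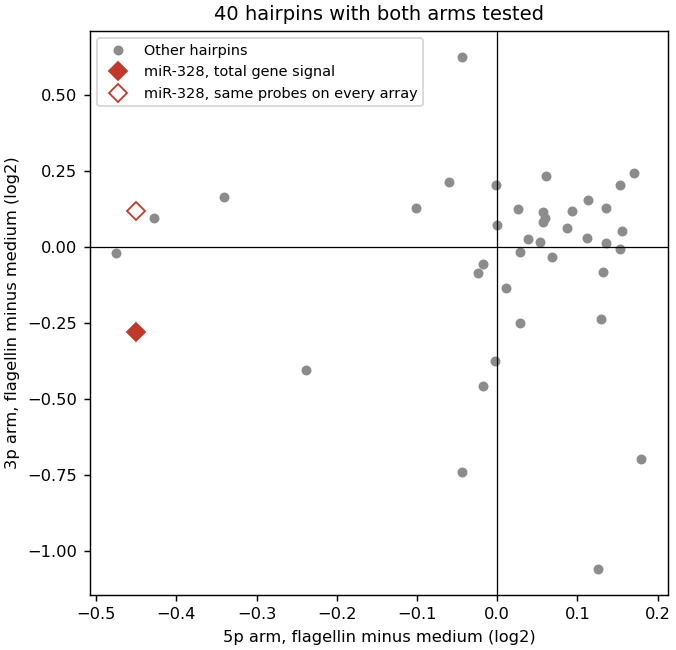
Flagellin minus medium on the log2 scale for the 5p arm (horizontal axis) and the 3p arm (vertical axis) of the 40 hairpins with both arms tested, as grey points, with miR-328 as a filled diamond from its total gene signals and as an open diamond from the same probes on every array. The filled diamond lies where both arms are lower and the open one above 0 for the 3p arm, with 24 of the 40 hairpins having both arms on the same side of 0.

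The miRNAs whose pattern over the 5 arrays was most like that of each lower arm were taken from the 277 detected on all arrays by the root mean square difference of log2 values, each centred on its own mean. For miR-135a-1-3p these were miR-139-3p (0.24), miR-1897-5p (0.26) and miR-328-5p (0.27), and the lower arms had been chosen by the same contrast. The closest to miR-139-3p were miR-1897-5p (0.06), miR-188-5p (0.13) and miR-211-3p (0.13), and the closest to miR-328-5p were miR-504-3p (0.09), miR-5622-3p (0.11) and miR-5099 (0.13). The mean probe GC of these other 6 miRNAs lay between 62.1% and 72.1%.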

How the data were processed

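The deposited intensity values, extracted by the authors with Agilent Feature Extraction 10.7.3.1 from Cy3-labelled total RNA of 3 flagellin and 2 medium arrays, hold signal and error for each probe and a total and a detection call for each miRNA. The authors also deposited a log2 table, which equals the log2 total gene signal less a constant for each array. Its scale, centring and direction were found from the values, and it served as an alternative. Total gene signals were divided by the array's 75th percentile over miRNAs detected on all arrays, floored at 0.0121 and transformed to log2. limma 3.58.1 (R 4.3.3) was fitted to 307 mouse miRNAs detected on at least 2 arrays, without covariates, with Benjamini-Hochberg adjustment, after testing on simulated data. Single probes of the arms outside the lower 3 were compared by exact two-sided permutation. Tables and figures used Python 3.11.15, numpy 2.4.6, pandas 2.3.3 and matplotlib 3.10.9. Named miRNAs are the members, the miR-135b arms, miRNAs sharing a member's seed, the 3 most alike to each lower arm, the cell type lists and any miRNA in a count of 5 or fewer. The members and lists were chosen with earlier results of these data known. Alternatives covered scaling, floor, detection, probe level, test, blocks and left-out arrays. The number of arrays limits the precision.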

Additional observations from a re-analysis of the deposited data

How the results depend on the processing

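No passing probe of the members exceeded 9.22 errors, and 1 slide with 2 medium arrays carries the comparison. Among the alternative values, 101 were labelled the same, 34 moved and 4 changed sign. A difference was the same within its spread, and a count within a set ratio of the main count. Where miR-328-3p had an adjusted p, only its sign and its side of the threshold mattered, so −3.68 and −2.49 were labelled the same. Many values could not move: the filters, the lower floor, the t-test and limma's trend option left the differences of the lower arms identical. A slide block could not be fitted, as all arrays share the slide, and miR-328-3p has no value among miRNAs detected on all arrays.

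The 4 changes of sign were all for miR-328-3p: its log2 difference was 0.0014 with quantile normalization, 0.079 with all probes summed without a detection rule, 0.018 at probe level with normexp and quantile normalization and 0.12 with the same probes on every array. It was −3.68 with the authors' values and −2.49 with a floor divided by 10, which set undetected arrays lower. With arrays left out it ranged from −0.72 to −0.06 (adjusted p from 0.136 to 0.998 in limma's test).

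The percentile over all mouse miRNAs moved the median of all tested miRNAs to 0.19, and the lower arms then stood at −0.75 (miR-135a-1-3p), −0.30 (miR-139-3p) and −0.27 (miR-328-5p). At probe level with normexp, with an offset of 50 added to each spot, they were −0.23, −0.085 and −0.16. Spot values are on another scale than the total gene signals. miR-139-3p was −0.29 with quantile normalization, −0.66 with all probes summed and −0.34 within array row 2, and miR-328-5p was −0.26 within row 1 and −0.69 within row 2, with 1 medium array in each row. The cause was not tested. With arrays left out the ranges were −1.0 to −0.84, −0.55 to −0.42 and −0.59 to −0.31. The median of the 17 GC-rich miRNAs, relative to all detected, went from −0.19 to −0.06 and −0.05 with the length or GC trend removed.

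miRNAs past an adjusted p of 0.05 numbered 2, as they did with the t-test that the methods name (there miR-483-5p besides miR-466i-3p). The count was 4 with the authors' values and with a floor divided by 10 (miR-193-5p, miR-3091-5p, miR-466i-3p and miR-5112). It was 1 with no filter, limma's trend option, array column as a random block and either probe trend removed (miR-466i-3p). Among miRNAs detected on all arrays the count was also 1, from which nothing is read because miR-135a-1-3p was chosen by its value. It was 0 with the percentile over all miRNAs (14 at an unadjusted p under 0.05 in limma), no scaling (8), quantile normalization (17), all probes summed (17), probe level (23), the array row block (15) and the same probes (15), and between 0 and 1 with arrays left out. It was 1 without flagellin replicate 3, and 0 without any other array.

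Correlations of deviations between flagellin and medium arrays lay between −0.08 and 0.08, with replicate numbers that matched or not. The deviations of 2 medium arrays mirror each other, so these values cannot decide whether replicate numbers pair the arrays. With the replicate block, which uses replicates 1 and 2 alone, the count was 0 (39 unadjusted), and the log2 differences were −1.0 for miR-135a-1-3p, −0.46 for miR-139-3p, −0.51 for miR-328-5p and −0.72 for miR-328-3p (95% interval −1.07 to −0.37, limma adjusted p = 0.336), the last with both flagellin arrays at the floor.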
